A study of Mus musculus with 6 samples.

Results

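The lysyl oxidase family was examined in whole brains of mouse embryos with a knockout of the transporter gene Mfsd7c. The family was taken as the rows Lox, Loxl1, Loxl2, Loxl3 and Loxl4 of the deposited count table, which are 5 of its 52459 gene symbols, and all 5 passed the filter on low counts. The knockout (KO) group held 3 brains with the genotype Mfsd7c-/- and the wild-type (WT) group held 3 brains labelled wild type, all on the C57BL/6 strain at E14.5. The labels name neither the deleted part of the gene nor the litters. The p-values set group differences against the spread between brains within groups, and treat these 6 brains as independent. Mfsd7c, whose current symbol is Flvcr2, was at 2.76, 2.54 and 2.71 CPM in KO replicates 1, 2 and 3, and at 4.64, 5.79 and 5.17 CPM in WT replicates 1, 2 and 3, where CPM is the read count scaled to library size with TMM factors. It fell in KO without overlap but was not absent (log2 fold change -0.96, SE 0.147, adjusted p = 0.0271 in edgeR).

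Libraries held 43784619 to 50549673 counts. Neuron markers summed to 5347 to 5853 CPM in KO and 5313 to 6202 CPM in WT libraries, so the markers of the labelled tissue were abundant in every library. Progenitor, microglia, erythroid and muscle markers overlapped between the groups. Caudal Hox genes summed to 0.0591 to 1.23 CPM in KO libraries and to 2.41, 89.2 and 27.0 CPM in WT replicates 1, 2 and 3. WT replicates 2 and 3, with these genes of hindbrain and spinal cord, are called the Hox-expressing libraries. Epidermal markers summed to 306, 21.1 and 64.8 CPM in KO replicates 1, 2 and 3, and to 260, 21.0 and 13.7 CPM in WT replicates 1, 2 and 3. KO replicate 1 and WT replicate 1, with the most epidermal keratin Krt5, are called the high-Krt5 libraries.

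Lysyl oxidases are secreted copper enzymes that turn lysine side chains of collagen and elastin into reactive aldehydes, which then join neighbouring chains into crosslinks. Lox and Loxl1 carry a propeptide that the protease Bmp1 removes, and they act mainly on fibrillar collagen and elastic fibres. Loxl2, Loxl3 and Loxl4 carry scavenger receptor cysteine-rich domains instead, and LOXL2 is known to crosslink collagen IV of basement membranes. In cultured human cells LOX, LOXL2 and LOXL4 are known targets of the hypoxia-inducible factors. In the brain the main matrix of this kind lies in the vessel walls and the meninges.

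The members share a catalytic region, and the short coding stretch over its copper-binding histidines shows how far the genes differ at the level that read counting uses. The stretches below were read from GENCODE M21 transcripts (GRCm38, 5′ to 3′ on the coding strand), with the 4 histidine codons in capitals.
Loxl1: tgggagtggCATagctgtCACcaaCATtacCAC
Loxl2: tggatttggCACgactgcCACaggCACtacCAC
Loxl3: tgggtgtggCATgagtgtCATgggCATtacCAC
Loxl4: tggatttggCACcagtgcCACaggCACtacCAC
The Loxl2 stretch crosses the junction of exons 10 and 11 of 14, at chr14:69682316-69689037 on the plus strand including the intron. It differed from the Loxl4 stretch at 2 of 33 bases, from Loxl3 at 8 and from Loxl1 at 11. The longest run of identical bases between any Loxl2 transcript and another member's was 28 bases, shared with Loxl1. Translated open reading frames of Loxl3 and Loxl4 matched Loxl2 at 56.4% and 55.7% of aligned residues, against 33.2% for Loxl1 and 35.9% for Lox.

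On GRCm38 Lox lies at chr18:52516067-52529867 on the minus strand, Loxl1 at chr9:58287738-58313186 on the minus strand, Loxl2 at chr14:69609068-69695834 on the plus strand, Loxl3 at chr6:83034173-83052562 on the plus strand and Loxl4 at chr19:42593982-42612813 on the minus strand. No stretch of 50 bases was shared between members, but Loxl2 has a near-copy outside the family. Of the 50-base stretches in Loxl2 transcripts, 42.9% also occurred in Gm21451, annotated as an unprocessed pseudogene at chr14:69390854-69480287, on the same chromosome and strand as Loxl2. The printed Loxl2 stretch also occurs in Gm21451. Gm21451 had 0, 1 and 9 counts in KO replicates 1, 2 and 3, and 2, 1 and 0 in WT replicates 1, 2 and 3. Gm16867 and Gm27177, both annotated on the opposite strand, each held 3.85% of the Loxl2 stretches and had at most 13 counts and 1 count in any library. No source used here gives the authors' treatment of reads that map to several places or their strand setting, and the absolute level of Loxl2 is therefore uncertain. Loxl3 overlaps Htra2 on the opposite strand over 535 exonic bases, and without a known strand setting the reads there cannot be assigned to either gene. Htra2 had 898 to 1140 counts in KO and 1075 to 1164 counts in WT libraries.

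Loxl2 was the 1 member of the family that rose in the KO brains. KO replicates 1, 2 and 3 had 1129, 987 and 1336 Loxl2 counts, or 26.2, 19.5 and 27.9 CPM, and WT replicates 1, 2 and 3 had 513, 440 and 431 counts, or 11.6, 8.75 and 8.60 CPM. The groups did not overlap, and the lowest KO library lay well above the highest WT library. The means were 24.5 ± 4.45 CPM in KO and 9.64 ± 1.67 CPM in WT brains (SD, n = 3 each). The fold change was 2.54, or 1.35 on the log2 scale (SE 0.164, 95% interval 0.97 to 1.72), with an adjusted p of 0.0099 in edgeR's quasi-likelihood test with Benjamini-Hochberg adjustment over 19565 genes. By its p-value Loxl2 ranked 48 among all genes tested. Across all genes tested, 0.659% passed an adjusted p of 0.05, with 0.624% higher and 0.0358% lower in KO. Groups without overlap made up 14.4% of genes, 7.84% with KO above and 6.58% with KO below. The family had 1 member of 5 that passed and 1 of 5 without overlap, Loxl2 in both cases, a count too small to set against those shares. In bulk tissue, more cells that express a gene and more RNA per cell cannot be told apart.

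The Loxl2 call was lost in 4 of the 6 fits that left out 1 library. The adjusted p in edgeR was 0.0543 without KO replicate 1, 0.0924 without KO replicate 3, 0.0751 without WT replicate 2 and 0.0741 without WT replicate 3. It was 0.00434 without KO replicate 2 and 0.00257 without WT replicate 1. The log2 fold change stayed between 1.24 and 1.498 in these 6 fits. For Loxl2 the authors' deposited table lists 1.35 (SE 0.165) on the log2 scale and an adjusted p of 1.39e-13, from the same libraries, beside 1.5% of its genes under 0.05. The embryonic share of beta-globin counts was 2.80%, 23.6% and 5.03% in KO replicates 1, 2 and 3. In WT replicates 1, 2 and 3 that share was 4.49%, 23.3% and 26.5%. The beta-globin term split the libraries into those above and below a share of 10%. With Krt5 as a covariate the log2 fold change of Loxl2 was 1.23 and with the beta-globin term it was 1.19, both past the threshold. Without the Hox-expressing libraries it was 1.09 and did not pass (edgeR adjusted p = 0.223).

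**Figure D1:**
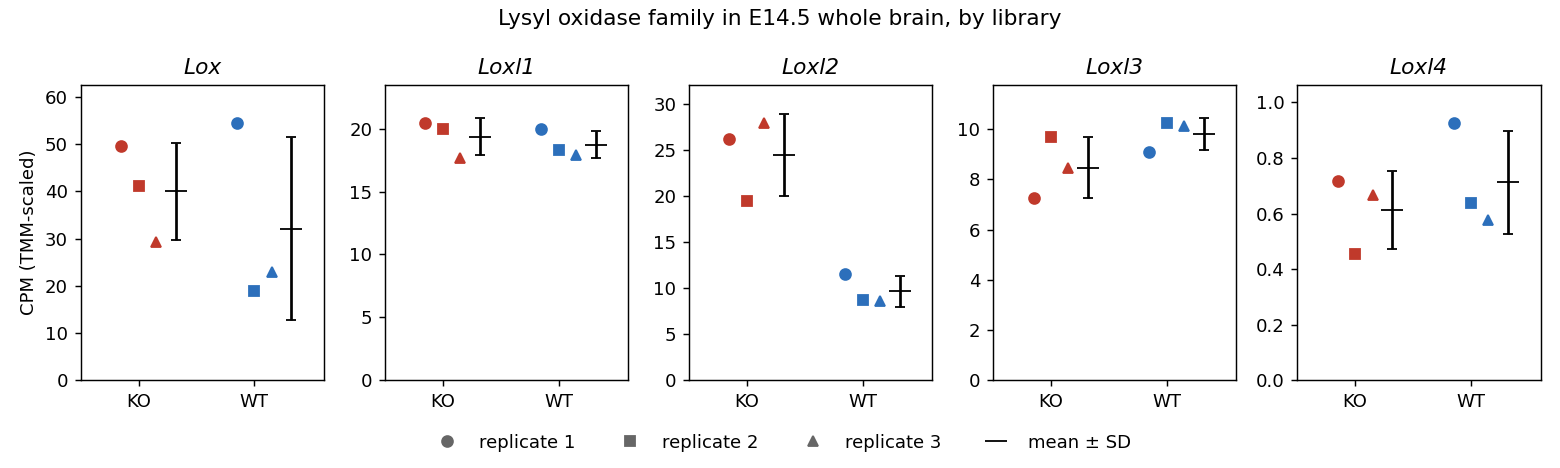
Levels of the 5 family members (y axes, TMM-scaled CPM from 0) in KO and WT brains. Coloured symbols are single libraries, with the shape giving the replicate number, and black bars are the mean ± SD of 3; the Loxl2 groups do not overlap, and Lox in WT replicate 1 stands at 54.4 CPM above every other library.

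Lox, the founding member, varied more between brains of 1 genotype than between genotypes. KO replicates 1, 2 and 3 had 2141, 2083 and 1404 Lox counts, or 49.6, 41.1 and 29.3 CPM, and WT replicates 1, 2 and 3 had 2412, 953 and 1148 counts, or 54.4, 19.0 and 22.9 CPM. WT replicate 1 was the highest of the 6 libraries, and the other WT libraries were the lowest. The coefficient of variation was 25.5% in KO and 60.5% in WT brains. The log2 fold change was 0.32 (SE 0.481, 95% interval -0.93 to 1.57, edgeR adjusted p = 0.907), so that a rise or a fall within that interval could not be told from none.

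The libraries with the most Lox, WT replicate 1 and KO replicate 1, were the high-Krt5 libraries, with epidermal marker sums of 306 CPM in KO replicate 1 and 260 CPM in WT replicate 1. The other KO libraries broke this order. KO replicate 2 had 41.1 CPM of Lox beside 3.73 CPM of Krt5, and KO replicate 3 had 29.3 CPM of Lox beside 20.4 CPM of Krt5. WT replicate 1 also carried a bone transcript. Ibsp, which encodes bone sialoprotein of mineralising tissue, was at 1.04, 0.118 and 0.125 CPM in KO replicates 1, 2 and 3, and at 44.2, 0.159 and 0.219 CPM in WT replicates 1, 2 and 3. The summed level of the 9 cartilage and bone markers was 5.18 to 7.49 CPM in KO libraries and 5.53 to 55.2 CPM in WT libraries, and Ibsp alone gave 44.2 of the 55.2 CPM in WT replicate 1. Col1a1, a main substrate of Lox and named here after its values were seen, was at 302, 187 and 204 CPM in KO replicates 1, 2 and 3, and at 529, 151 and 149 CPM in WT replicates 1, 2 and 3. In KO replicates 1, 2 and 3 the meningeal fibroblast markers summed to 284, 299 and 267 CPM. In WT replicates 1, 2 and 3 they summed to 351, 234 and 243 CPM. Lox ranked the libraries in the same order, except that KO replicates 1 and 2 changed places. Skeletal muscle markers were highest in WT replicate 1, at 25.6 CPM, then in KO replicate 1, and lowest in KO replicate 3. The part of epidermal, bone, meningeal or muscle tissue in the Lox values was not tested.

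Leaving out WT replicate 1, the highest of the 6 libraries in Lox, left every KO library above the remaining WT libraries. The share of all genes separated in this smaller set was not counted, and its fit called 388 genes, against 129 with all libraries. Lox changed by 0.93 on the log2 scale in it (95% interval 0.26 to 1.61), still short of the threshold (edgeR adjusted p = 0.169, unadjusted p = 0.0171). Without both high-Krt5 libraries the change was 0.75 (95% interval 0.30 to 1.20, edgeR adjusted p = 0.124, unadjusted p = 0.00703). With all libraries and Krt5 as a covariate it was 0.19 (95% interval -1.04 to 1.41, edgeR adjusted p = 0.896). Without the Hox-expressing libraries it was -0.44 (95% interval -1.48 to 0.60, edgeR adjusted p = 0.790), with a single WT library left.

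Loxl1, which is needed for elastic fibre upkeep, was the steadiest member. It had 20.4, 20.0 and 17.7 CPM in KO replicates 1, 2 and 3, and 20.0, 18.3 and 17.9 CPM in WT replicates 1, 2 and 3. The groups overlapped throughout. Its log2 fold change was 0.047 (SE 0.0879, edgeR adjusted p = 0.930), and its 95% interval of -0.15 to 0.25 leaves out a change as large as that of Loxl2.

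Loxl3, which is required for palate and spine development in mice, had 7.25, 9.70 and 8.45 CPM in KO replicates 1, 2 and 3, and 9.09, 10.2 and 10.1 CPM in WT replicates 1, 2 and 3. Most KO values lay below the WT values, but KO replicate 2 exceeded WT replicate 1. The log2 fold change was -0.21 (SE 0.129, 95% interval -0.51 to 0.084, edgeR adjusted p = 0.737).

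Loxl4 was near the limit of what these libraries measure. It had 31, 23 and 32 counts in KO replicates 1, 2 and 3, and 41, 32 and 29 counts in WT replicates 1, 2 and 3. The means were 0.613 ± 0.141 CPM in KO and 0.713 ± 0.185 CPM in WT brains (SD, n = 3 each). Its log2 fold change was -0.22 with a 95% interval of -0.92 to 0.48 (edgeR adjusted p = 0.899), so a change within that interval was not detectable at this depth.

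**Figure D2:**
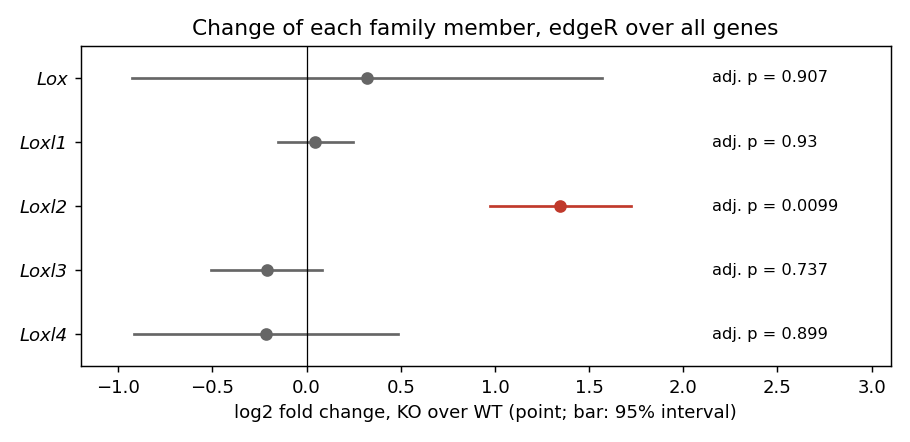
Change of each member as log2 fold change of KO over WT (x axis) from the edgeR fit over all genes. Points are estimates and bars 95% intervals; the interval of Loxl2 (red, 0.97 to 1.72) lies above 0, and the other 4 include 0, that of Lox being the widest.

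Per kilobase of exon the order of the mean levels was Lox, Loxl1, Loxl2, Loxl3 and Loxl4 in KO brains, and in WT brains Loxl3 stood above Loxl2. Lox averaged 8.37 ± 2.14 RPKM in KO and 6.71 ± 4.06 RPKM in WT brains (SD, n = 3 each), where RPKM is CPM per kilobase of annotated exon. Loxl1 averaged 5.87 ± 0.443 RPKM in KO and 5.68 ± 0.330 RPKM in WT brains. Lox was above Loxl1 within each KO library, although the ranges over KO libraries overlapped, and in WT brains it was above Loxl1 in replicate 1 and below it in replicates 2 and 3. Loxl2 averaged 4.53 ± 0.824 RPKM in KO and 1.78 ± 0.309 RPKM in WT brains. Loxl3 averaged 1.84 ± 0.266 RPKM in KO and 2.13 ± 0.136 RPKM in WT brains. Loxl2 was thus above Loxl3 in each KO library, at 1.71 to 3.07 times its level, while in WT libraries the ratio ran from 0.724 to 1.08. Loxl4 averaged 0.146 ± 0.0334 RPKM in KO and 0.169 ± 0.0440 RPKM in WT brains.

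Loxl2 made up a larger part of the family in each KO library. Its share of the family's reads per kilobase was 20.9%, 17.6% and 27.7% in KO replicates 1, 2 and 3, and 9.83%, 11.98% and 11.2% in WT replicates 1, 2 and 3. The difference of 11.03 percentage points had an exact two-sided permutation p of 0.1, which is the smallest that 3 against 3 libraries allow (0.2 after Benjamini-Hochberg adjustment over the 2 shares tested). The share of Lox was 39.9 ± 6.25% in KO and 38.5 ± 12.1% in WT brains (SD, n = 3 each), a difference of 1.41 percentage points (exact two-sided permutation p = 0.9, adjusted 0.9). Loxl4, the smallest share, was 0.704 ± 0.164% in KO and 1.03 ± 0.0764% in WT brains, and its groups did not overlap. Shares are parts of one total, so a larger Loxl2 share lowers the others. In CPM the Loxl4 groups overlapped.

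The ratio of Loxl2 to each other member reuses the Loxl2 counts above and is no separate evidence. It was higher in every KO library than in any WT library. Against Loxl1, the steadiest partner, it was 0.594 to 0.961 in KO and 0.291 to 0.353 in WT libraries. Against Lox it was 0.419 to 0.841 in KO and 0.188 to 0.408 in WT libraries, a narrow separation. When the number of 50-base stretches that no other gene shares stood in for the length of each member (2945 for Loxl2), a choice made after seeing the data, the Loxl2 share was 33.6 ± 6.59% in KO and 18.2 ± 1.62% in WT brains (SD, n = 3 each). On that length Loxl2 stood level with Lox in KO brains, at 33.8 ± 6.20%, and above Loxl3 in WT brains, at 13.2 ± 3.76%.

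**Figure D3:**
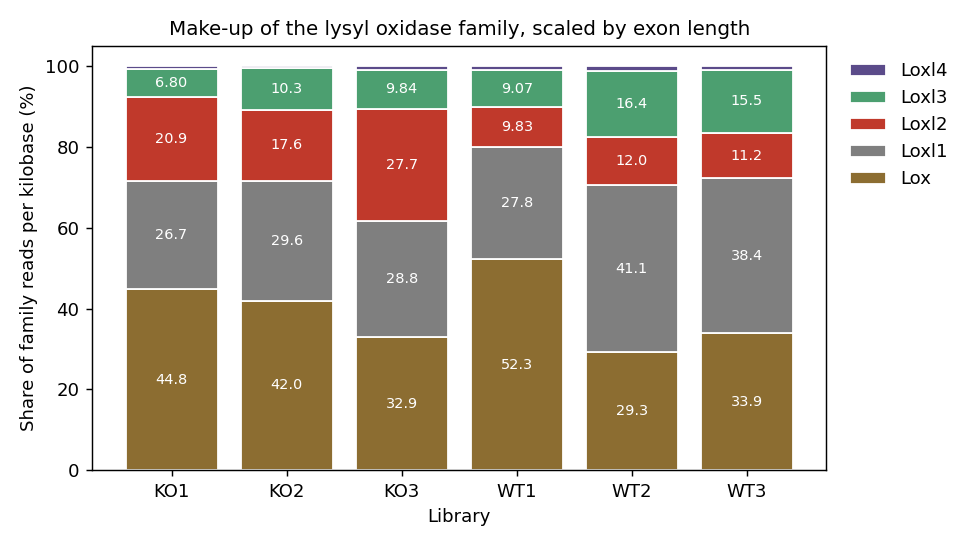
Share of each member in the family's reads per kilobase of exon (y axis, %) in each library (x axis), with bars stacked to 100%. The red Loxl2 segment is 17.6% to 27.7% in KO libraries and 9.83% to 11.98% in WT libraries; the Lox segment is largest in WT replicate 1.

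The genes with the most similar pattern to Loxl2 were ranked by the root mean square difference between log2 CPM values centred on each gene, over 6 libraries and 13761 candidate genes. The nearest was Ldha, the lactate dehydrogenase subunit of glycolytic tissue, at a difference of 0.0526. It averaged 582 ± 91.7 CPM in KO and 238 ± 29.0 CPM in WT brains (SD, n = 3 each). Next were Eif4ebp1, a repressor of cap-dependent translation, at 0.0758, and Clec1a, a lectin-like receptor of endothelium, at 0.0937. Igfbp7, a secreted protein of vessel walls, followed at 0.102, and Egln3, an oxygen-sensing prolyl hydroxylase, at 0.122. All had log2 fold changes between 1.23 (Clec1a, Egln3) and 1.32 (Eif4ebp1), and all except Clec1a passed the threshold (Clec1a edgeR adjusted p = 0.0539). This ranking describes the same 6 libraries and carries no test.

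Among the fibrillar substrates no gene passed. Of 11 fibrillar collagen chains, 0 rose and 0 fell in edgeR, with a median log2 fold change of -0.19 against -0.0099 over all genes tested. Unadjusted, 4 had a p under 0.05, limma-voom called 0, and the DESeq2 Wald test called 1 (Col11a2, lower). Without the high-Krt5 libraries 1 rose (Col1a1) and 1 fell (Col11a2). Col11a2, a collagen XI chain of cartilage, averaged 17.5 ± 3.86 CPM in KO and 26.6 ± 3.25 CPM in WT brains, and Col24a1, a minor fibrillar chain, averaged 2.08 ± 0.432 CPM in KO and 3.29 ± 0.263 CPM in WT brains (SD, n = 3 each; edgeR adjusted p = 0.272 and 0.360). Of 17 elastic fibre genes, 0 passed in edgeR, limma-voom or DESeq2, and 1 had an unadjusted p under 0.05. That was Fbln2, a fibulin of vessel matrix, at 26.3 ± 1.496 CPM in KO and 29.4 ± 0.870 CPM in WT brains. Eln, which encodes elastin, averaged 31.3 ± 7.56 CPM in KO and 41.4 ± 8.54 CPM in WT brains, with overlapping groups (edgeR adjusted p = 0.661). Without the high-Krt5 libraries 2 of the 17 fell, Eln and Mfap4, a microfibril protein. Eln also passed, lower in KO, with the block for replicate number and with the Krt5 covariate.

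Basement membranes are the setting in which LOXL2 is known to act. Of 15 basement membrane genes, 1 rose and 0 fell in edgeR, against 0.624% and 0.0358% of all genes tested. In 8 the KO libraries lay above all WT libraries, against 7.84% of all genes tested, and the median log2 fold change was 0.35. Such separation was not particular to this list. KO lay above in 8 of 17 collagen hydroxylation and folding genes and in 16 of 18 hypoxia response genes. KO lay below in 3 of 11 fibrillar collagen chains and in 1 of the 17 hydroxylation and folding genes, against 6.58% of all genes tested. The basement membrane gene that rose was Lama4, a laminin chain of vessel walls. It was at 75.3, 69.4 and 77.6 CPM in KO replicates 1, 2 and 3. In WT replicates 1, 2 and 3 it was at 51.8, 49.0 and 48.6 CPM. The DESeq2 Wald test called 6 of the 15, all higher, out of 313 calls over all genes. Among the 6 were Col4a1 and Col4a2, the chains of the collagen IV network. The edgeR count was 0 without KO replicate 3, WT replicate 2 or WT replicate 3. Those fits called 41, 36 and 44 of all genes, against 129 with all libraries. The list count was 4 without WT replicate 1, where 388 of all genes were called. It was 8 higher and 1 lower without the high-Krt5 libraries, where 265 of all genes rose and 194 fell.

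Of 9 genes for the maturation and binding of lysyl oxidases, 0 passed in edgeR, limma-voom or DESeq2, and 1 had an unadjusted p under 0.05. It was Bmp1, which frees Lox and Loxl1 from their propeptides, at 60.8 ± 6.00 CPM in KO and 75.8 ± 5.01 CPM in WT brains (SD, n = 3 each), without overlap (edgeR adjusted p = 0.260). Fn1, the fibronectin that binds Bmp1 and Lox, averaged 315 ± 31.2 CPM in KO and 272 ± 31.4 CPM in WT brains. Bmp1 passed, lower in KO, without the high-Krt5 libraries, with a block for replicate number and with the Krt5 covariate. Those fits called 459, 282 and 425 of all genes.

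The enzymes that hydroxylate collagen before it is crosslinked included members that rose. Of 17 hydroxylation and folding genes, 2 rose and 0 fell, against 0.624% and 0.0358% of all genes tested. Their median log2 fold change was 0.095. P4ha1, a prolyl hydroxylase subunit, was at 71.2, 60.1 and 93.7 CPM in KO replicates 1, 2 and 3, and at 31.5, 32.3 and 34.8 CPM in WT replicates 1, 2 and 3 (log2 fold change 1.19, SE 0.148, edgeR adjusted p = 0.0123). Plod2, which hydroxylates the collagen telopeptide lysines that lysyl oxidases then oxidise, was at 39.4, 42.2 and 48.4 CPM in KO replicates 1, 2 and 3, and at 23.3, 29.8 and 28.2 CPM in WT replicates 1, 2 and 3 (log2 fold change 0.68, SE 0.111, edgeR adjusted p = 0.0372). P4ha1 lost its call without any single WT library, without the high-Krt5 libraries and without the Hox-expressing libraries. It also lost its call with no low-count filter, and once Krt5 or the beta-globin term was added to the fit. Plod2 lost its call without any single KO library, without WT replicate 2, without WT replicate 3, without the Hox-expressing libraries and with a filter at a mean of 1 CPM. The count was 4 without WT replicate 1 and 4 without the high-Krt5 libraries, in both cases Fkbp10, P3h4, P4ha2 and Plod2. Those fits called 388 and 459 of all genes, against 129 with all libraries. The list count was also 4 in the DESeq2 Wald test, out of 313 calls. It was 1 without KO replicate 1 or KO replicate 3, where 51 and 41 of all genes were called. It was 0 without WT replicate 2 or WT replicate 3, where 36 and 44 were called.

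Copper handling supplies the cofactor of the family. Of 11 tested genes for it, 1 rose and 0 fell, against 0.624% and 0.0358% of all genes tested. Atp7b, a copper-exporting ATPase, averaged 11.4 ± 0.941 CPM in KO and 6.83 ± 0.606 CPM in WT brains (SD, n = 3 each; log2 fold change 0.74, SE 0.117, edgeR adjusted p = 0.0322). Its relative Atp7a, which loads copper onto secreted enzymes in the secretory pathway and was named after its values were seen, averaged 32.8 CPM in KO and 31.1 CPM in WT brains (edgeR adjusted p = 0.904). Atp7b lost its call without any single KO library, without WT replicate 2, without WT replicate 3 and without both of these WT libraries. The other copper amine oxidases Aoc2 and Aoc3 averaged 8.17 and 0.524 CPM in KO brains and 9.52 and 0.586 CPM in WT brains. Of these 2 genes, 0 passed in edgeR, limma-voom or DESeq2, and 0 had an unadjusted p under 0.05.

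Of 18 hypoxia response genes, 11 rose and 0 fell, against 0.624% and 0.0358% of all genes tested. Their median log2 fold change was 1.03. Pdk1, a kinase that inhibits pyruvate dehydrogenase, averaged 120 ± 13.8 CPM in KO and 40.7 ± 5.56 CPM in WT brains, and Bnip3, a mitophagy receptor, averaged 75.5 ± 16.2 CPM in KO and 20.1 ± 1.81 CPM in WT brains (SD, n = 3 each). On the log2 scale the change was 1.10 (SE 0.0864) for Pgk1, a glycolytic kinase, and 1.18 (SE 0.114) for Ak4, a mitochondrial adenylate kinase. The list was chosen with its rise in these libraries known and is no independent evidence. The count was 7 without KO replicate 1 and 5 without WT replicate 2 or WT replicate 3. Those fits called 51, 36 and 44 of all genes, against 129 with all libraries. Without the high-Krt5 libraries the list count was 10, out of 459 calls over all genes.

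Tgfb1, a growth factor that drives matrix production, averaged 11.9 ± 0.978 CPM in KO and 6.67 ± 0.611 CPM in WT brains (SD, n = 3 each; log2 fold change 0.84, SE 0.117, edgeR adjusted p = 0.0183). Its call was lost without KO replicate 1, KO replicate 3, WT replicate 2 or WT replicate 3, and without both Hox-expressing libraries. The related ligands and receptors did not pass, with log2 fold changes of 0.016 for Tgfb2, -0.10 for Tgfb3, 0.10 for Tgfbr1 and -0.081 for Tgfbr2. LOXL2 and LOXL3 are known to bind SNAI1 in human cells. Of 9 tested genes of the Snail and mesenchymal transition list, 0 passed in edgeR, limma-voom or DESeq2, and 1 had an unadjusted p under 0.05. It was Cdh2, or N-cadherin, at 374 ± 17.6 CPM in KO and 328 ± 8.17 CPM in WT brains. Zeb2, a repressor of E-cadherin, averaged 222 ± 21.7 CPM in KO and 198 ± 10.2 CPM in WT brains.

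**Figure D4:**
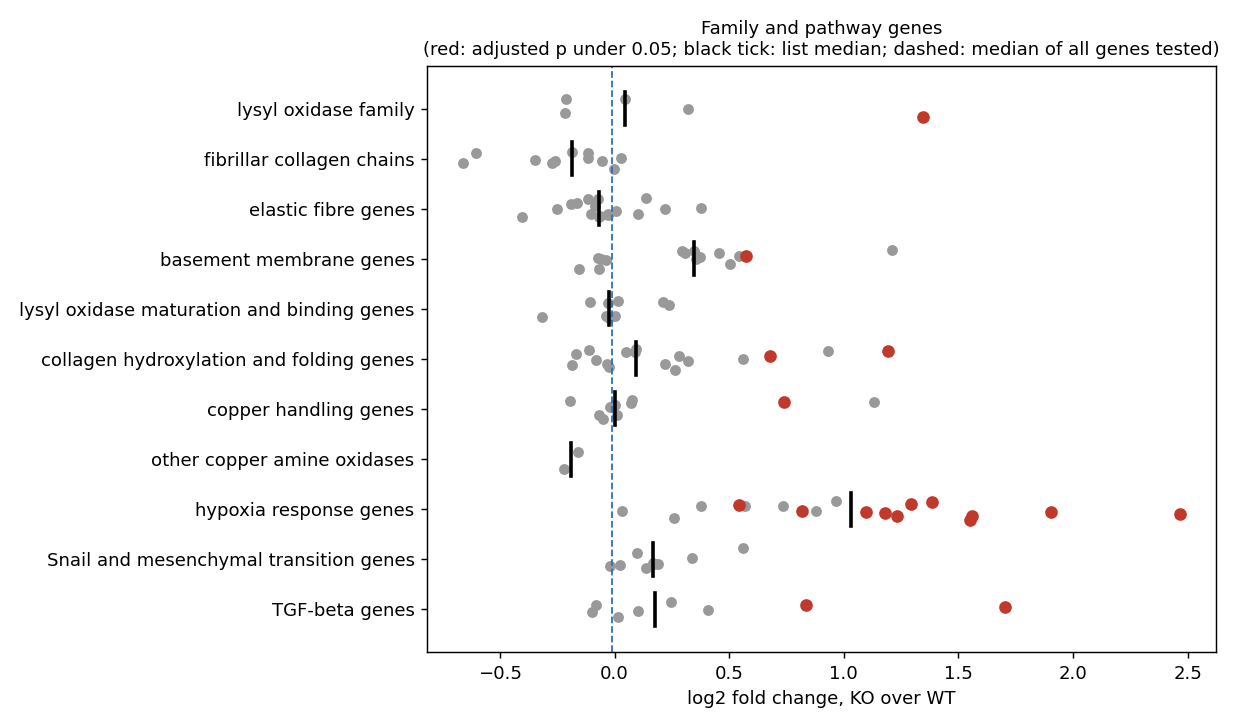
Log2 fold change of KO over WT (x axis) for the tested genes of the family and of 10 pathway lists (rows). Each point is a gene, red where the edgeR adjusted p is under 0.05, black ticks are list medians and the dashed line is the median of all genes tested (-0.0099); red points are most frequent among the hypoxia response genes, and Loxl2 is the red point of the family.

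The sums of some vascular marker lists differed between the groups. The summed level of 5 endothelial tip cell markers was 74.0 to 104 CPM in KO and 25.8 to 28.3 CPM in WT libraries, and 3 of them rose, with Apln and Angpt2 the most abundant. The sum of 8 pan-endothelial markers was 319 to 350 CPM in KO and 260 to 316 CPM in WT libraries, a narrow separation. Of these markers, 2 rose and 1 fell. The sum of 8 mural cell markers was 198 to 225 CPM in KO and 275 to 288 CPM in WT libraries, with 1 that fell. Over all genes tested, 0.624% rose and 0.0358% fell. Meningeal fibroblast markers overlapped, at 267 to 299 CPM in KO and 234 to 351 CPM in WT libraries. No member of these lists was at 0 in all 6 libraries. The part of these cell types in the Loxl2 values was not tested.

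**Figure D5:**
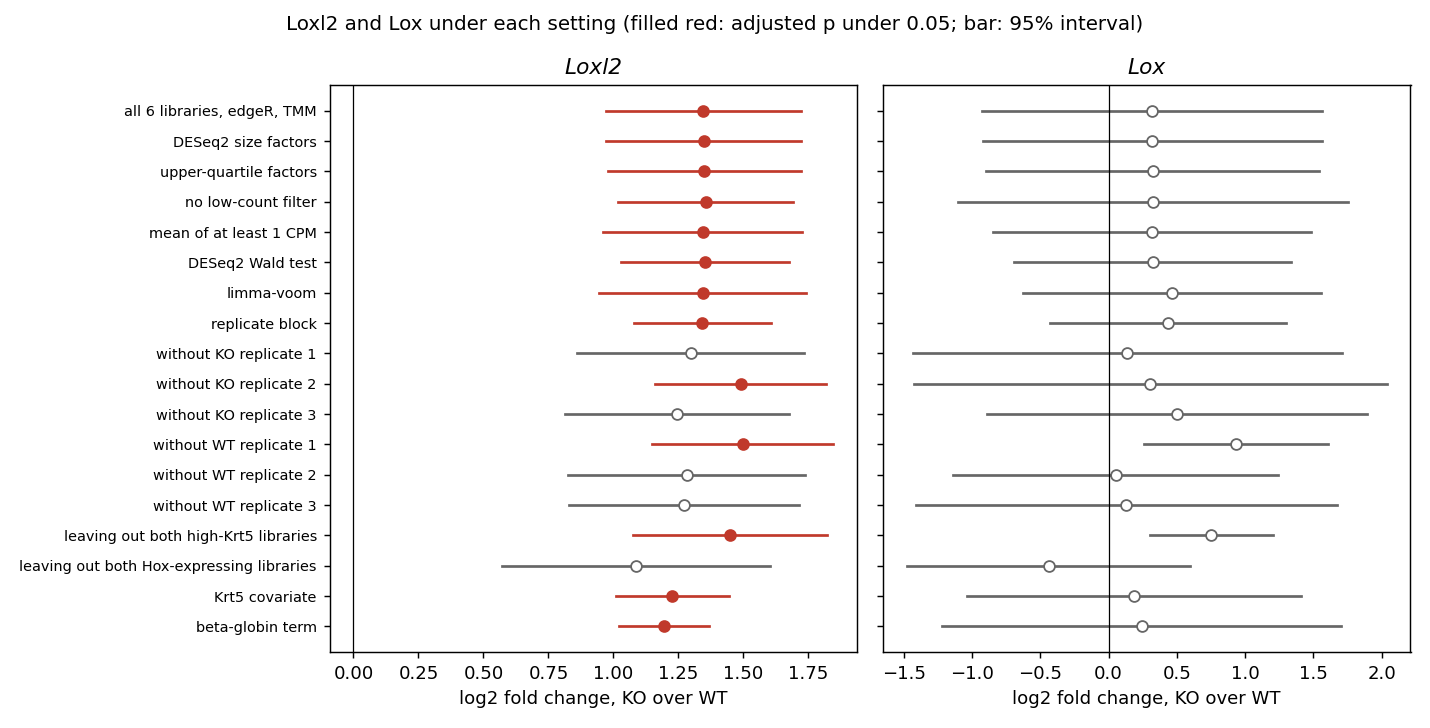
Log2 fold change of KO over WT (x axes) for Loxl2 and Lox under each setting (rows), with bars for 95% intervals and filled red points where the adjusted p is under 0.05. Every Loxl2 estimate lies between 1.09 and 1.498; the Lox estimates run from -0.44 to 0.93, with the lowest when both Hox-expressing libraries are left out and the highest without WT replicate 1.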

How the data were processed

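Total RNA from whole brains of 3 KO and 3 WT embryos was sequenced, per the labels. The deposited counts are whole reads per gene symbol. The submitters' processing notes name STAR 2.5.2a, featureCounts, DESeq2 1.12.4 and the builds mm10 and hg19, with no roles. The sources used here give neither annotation release nor strand setting. Per the file headers, the table of the authors' comparison lists a mean normalized signal, a log2 fold change with its error, a Wald score and p-values.

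Genes passing filterByExpr (19565) were TMM-scaled and tested by the robust quasi-likelihood test of edgeR 4.0.16 in R 4.3.3, at an FDR of 0.05. DESeq2 1.42.0 and limma-voom (limma 3.58.1) were alternatives. The SE is the log2 fold change divided by the root of F. Exon lengths and coordinates came from GENCODE M21 on GRCm38, and sequence sharing was counted over 50-base stretches on either strand. On simulated counts for KO against WT (19249 genes), 54% of 50 genes raised 1.5-fold were recovered, against 82% for 2-fold and 98% for 4-fold, and 6.98% of calls were false. The common coefficient of variation between brains was 15.3%, and counts of each pair of libraries differed beyond sampling noise.

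Members, gene lists and alternatives were chosen with earlier results of these data known. Of the other pathway lists, the members that passed are named (at most the 4 with the lowest p-values), or else the 2 with the lowest p-values. Of marker lists, at most the 2 most abundant genes are named. Counts for the TGF-beta list are not reported here.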

Additional observations from a re-analysis of the deposited data

How the results depend on the processing

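The log2 fold change of Loxl2 kept its direction in all 17 alternatives and its call in 12. It lost the call without both Hox-expressing libraries, at 1.09 (edgeR adjusted p = 0.223), with a single WT library assumed to vary like the rest. It also lost it in 4 of the 6 fits without 1 library, where it ran from 1.24 to 1.498. The number of family members that passed was 0 without both Hox-expressing libraries, and 0 to 1 without single libraries. Without both Hox-expressing libraries Lox turned to -0.44 and Loxl1 to -0.041, neither past the threshold. Without single libraries Loxl4 ran from -0.35 to 0.0091, turning without WT replicate 1, and a filter of 1 CPM left it untested. Loxl3 stayed negative in all 17. The Loxl2 share stayed higher in KO in all 9 alternatives. The difference in Lox share was -0.094 points on counts without length and -1.33 points on unshared length, and ran from -3.17 to 8.29 without single libraries. The causes were not tested.

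Over all genes, 211 passed without a low-count filter, 313 in the DESeq2 Wald test, 282 with the replicate block, 459 without the high-Krt5 libraries, 20 without the Hox-expressing libraries, 425 with the Krt5 covariate, 236 with the beta-globin term and 49 at an FDR of 0.01, against 129. Single omissions gave 36 to 388. The split was 233 higher and 155 lower without WT replicate 1, 265 and 194 without the high-Krt5 libraries, and 253 and 60 in DESeq2, against 122 and 7. Of 120 pathway genes, 17 passed, against 31 in DESeq2, 32 with the replicate block, 32 without the high-Krt5 libraries, 2 without the Hox-expressing libraries, 9 at an FDR of 0.01, and 6 to 22 in single omissions.

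The replicate numbers were not shown to pair the brains. Deviations of same-numbered libraries correlated at 0.587, 0.310 and 0.0337 for numbers 1, 2 and 3, and KO replicate 2 correlated best with WT replicate 3 (0.478). With the replicate block Loxl2 had a log2 fold change of 1.34 (edgeR adjusted p = 0.000423), and 1 family member passed. Depth limits Loxl4, with 23 to 41 counts a library.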
